A study of Caenorhabditis elegans with 6 samples.

Results

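The stomatin-like genes of Caenorhabditis elegans counted here were mec-2, unc-24, unc-1 and sto-1 to sto-6, 9 of the 46726 gene identifiers in the count tables. They were chosen by name, as the worm relatives of stomatin that carry the mec, unc and sto symbols, and each symbol matched 1 identifier. The series sequenced polyA RNA of touch neurons sorted from animals at the L4 stage in 6 libraries, 3 from wild type and 3 from the mutant mec-8(e398), which carries the reference allele of the splicing factor gene mec-8. Both genotypes were sorted by a mec-4p::GFP transgene, which marks the touch neurons, and each library pooled cells from many synchronized animals described in the methods as a biological replicate. The labels call the wild-type strain N2 and name no transgene, whereas the methods use N2 without GFP to set the sorting gates. No agent was given to either group. The question was how mec-2, whose splicing depends on MEC-8, compared with its paralogs in each library and whether any of the family differed between the genotypes.

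Stomatins are membrane proteins that insert into the inner face of the membrane, bind cholesterol and form oligomers that change the activity of ion channels. MEC-2 binds the touch channel formed by the DEG/ENaC subunits MEC-4 and MEC-10 and raises its current. UNC-24 joins a stomatin domain to a sterol carrier domain and acts with the same channel, and UNC-1 is known for locomotion, for the response to volatile anesthetics and for regulating gap junctions of the innexin UNC-9. In mice the relative STOML3 is needed for touch. The sto genes were named for their sequence, and no role is given for them here.

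Of the 9 genes, 8 lie on chromosome X of WBcel235 and only unc-24 lies elsewhere, on chromosome IV from 7979870 to 7982011. The gene mec-2 runs from 5567754 to 5590830 on the plus strand of X, and sto-2 ends 244366 bases before it. The genes sto-3, sto-6 and sto-4 lie within 27473 bases of each other, from 11619953 to 11647425. The gene sto-1 lies at 7562824 to 7564814, unc-1 at 1057487 to 1062453 and sto-5 at 16816260 to 16825458. The annotation gives mec-2 17 transcripts, by far the most in the family, with lengths from 1200 to 4053 bases and 5764 bases of exon in all. Of these, the 4 transcripts b, c, k and l end upstream, between 5585171 and 5585186, and the other 13 end between 5588045 and 5590830. The short mec-2b form that the study follows is among the 4, and its long and extra-long forms a and e are among the 13. Counts per gene add all of them together, so every value below is a total over isoforms.

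Depth ranged from 15334872 to 33094142 reads counted on genes, so 3 counts, the smallest amount taken as detectable, stood between 0.0907 and 0.196 CPM, that is, counts scaled to 1000000 reads on genes in each library. Below, the values of a genotype are listed in the order of its replicates 1, 2 and 3. All 10 touch neuron markers had counts in every library, and together they took between 1026 and 14706 CPM. Markers of other cells were present as well, with 6 muscle genes summing to 4151 to 80033 CPM, while 5 genes of ciliated sensory neurons stayed at or under 6.89 CPM in sum. The mutated gene itself, mec-8, was counted at 35.3, 8.64 and 9.33 CPM in wild type and at 23.4, 6.48 and 2.60 CPM in the mutant, with overlap, and a count per gene does not show the mutation. The libraries of a genotype differed widely, and the square root of edgeR's common dispersion was 1.20. In such sorted RNA, fewer cells of a type and less RNA per cell cannot be told apart.

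The gene mec-2 had the most reads of the family in 3 of the 6 libraries, wild-type replicates 1 and 3 and mec-8 replicate 1. In wild-type replicate 2 sto-5 had 837 reads against 826, and in mec-8 replicates 2 and 3 sto-1 had 598 against 597 and 540 against 537, gaps within counting error. Wild-type libraries held 44.8, 29.6 and 52.6 CPM of mec-2, from 1037, 826 and 806 reads. Libraries of the mutant held 1019, 19.7 and 23.7 CPM, from 33707, 597 and 537 reads. The genotypes thus overlapped only through mec-8 replicate 1, which stood 19.4-fold above the next library, while mec-8 replicates 2 and 3 both lay below all 3 wild-type libraries. A lead of mec-8 replicate 1 at least this large was found in 0.547% of the 14614 genes tested, and mec-8 replicates 2 and 3 lay below all wild-type libraries in 3.38% of them. The mean was 42.3 ± 11.7 CPM in wild type (SD, n = 3) and 354 ± 576 CPM in mec-8 mutants (SD, n = 3). By the quasi-likelihood test of edgeR, mec-2 had a log2 fold change of 3.25 with a standard error of 1.67, and the p adjusted by Benjamini-Hochberg over all genes was 1.0. Without mec-8 replicate 1 the log2 fold change was -1.21 with a standard error of 0.753 (adjusted p = 1.0, edgeR), so the direction rested on that library.

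**Figure D1:**
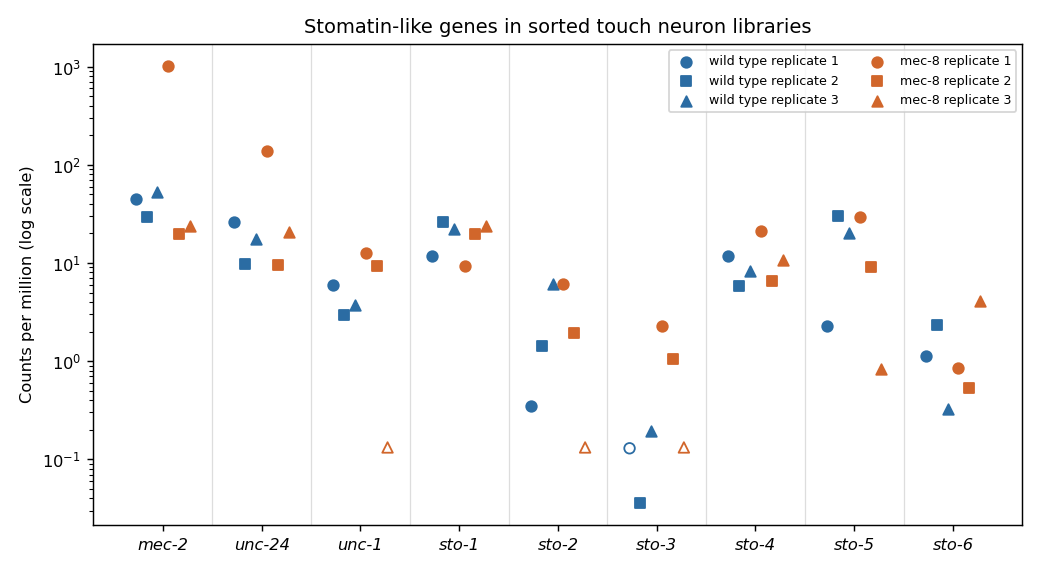
CPM on a log axis for each stomatin-like gene, with wild-type libraries in blue, mec-8 libraries in orange and the replicate given by the marker. Open markers stand for libraries with 0 counts and are drawn at the level of 3 counts. The gene mec-2 reached 1019 CPM in mec-8 replicate 1 and lay between 19.7 and 52.6 CPM elsewhere.

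The gene unc-24, whose protein acts with the touch channel, followed mec-2 in part. Its level was 25.9, 9.79 and 17.5 CPM in wild type and 139, 9.49 and 20.7 CPM in the mutant. It was again highest in mec-8 replicate 1, by 5.38-fold over the next library, and a lead of at least that size was found in 3.91% of genes tested. Outside that library the genotypes overlapped. In edgeR the log2 fold change of unc-24 was 1.87 with a standard error of 1.19 (adjusted p = 1.0), and without mec-8 replicate 1 it was -0.38 with a standard error of 0.970 (adjusted p = 1.0).

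The locomotion gene unc-1 took fewer reads than mec-2 or unc-24 in every library. Per kilobase of exon it nevertheless stood above both in mec-8 replicate 2, at 7.65 CPM per kilobase against 6.74 for unc-24 and 3.43 for mec-2. Divided by the median length of a gene's transcripts, mec-2 stood above unc-1 in that library, at 11.6 against 7.71 CPM per kilobase. Wild type held 5.92, 2.98 and 3.72 CPM of unc-1, and the first pair of mutant libraries 12.7 and 9.36 CPM. In mec-8 replicate 3 it had 0 counts, which allows up to 0.132 CPM there. The mec-8 libraries therefore lay on both sides of the wild-type libraries, above them in replicates 1 and 2 and below them in replicate 3. By edgeR its log2 fold change was 0.82 with a standard error of 1.75 (adjusted p = 1.0), and without mec-8 replicate 1 it was -0.40. The genes sto-2 and sto-3 were also at 0 in mec-8 replicate 3, so 6 of the 9 members had counts there. Among the genes tested, a set without sto-3, 86.0% had counts in that library. In wild-type replicate 1, where 84.7% of genes tested had counts, only sto-3 was at 0. In mec-8 replicate 3 the 10 pan-neuronal markers summed to 144 CPM, the lowest of the 6 libraries, and 5 intestinal markers to 3667 CPM, the highest. Their part in the missing counts was not tested.

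The gene sto-1 did not share the high library of mec-2 and unc-24. Its level was 11.7, 26.0 and 22.4 CPM in wild type and 9.25, 19.8 and 23.8 CPM in the mutant, and the genotypes overlapped over nearly all of that range. In contrast to those genes it was lowest in mec-8 replicate 1. Its highest library was 2.81-fold above its lowest, and those of mec-2 and unc-24, both reached in mec-8 replicate 1, were 51.6-fold and 14.7-fold above theirs. Its log2 fold change in edgeR, -0.20 with a standard error of 0.773, was smaller than its error (adjusted p = 1.0).

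The 3 neighbours on chromosome X, sto-3, sto-6 and sto-4, stood at very different levels. For sto-4, wild type held 272, 163 and 126 reads and the mutant 695, 198 and 246, and in CPM mec-8 replicate 1 stood 1.79-fold above the next library while the others lay between 5.85 and 11.7 CPM. For sto-6, wild type held 1.12, 2.33 and 0.326 CPM and the mutant 0.846, 0.529 and 4.14 CPM, so that both the lowest and the second highest library were wild type. The gene sto-3 gave 0, 1 and 3 reads in wild type and 75, 32 and 0 reads in the mutant, and was the 1 member that did not pass the filter on low counts. In 2 mec-8 libraries sto-3 was thus above the smallest detectable amount, and in wild type it was not above it in any library. Of its 999 bases of exon, 97 are shared with F52D10.4 on the other strand, which held 50 counts in mec-8 replicate 1 and at most 5 elsewhere. Whether the counting used strand is not given in the sources used here, so reads of the 2 genes cannot be told apart where they overlap.

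The remaining members varied more between libraries than between genotypes. Wild type held 2.29, 30.0 and 20.4 CPM of sto-5 and the mutant 29.7, 9.10 and 0.837 CPM. Each genotype thus had a library among the highest pair and another among the lowest pair for sto-5. For sto-2 wild type held 0.345, 1.43 and 6.13 CPM and the mutant 6.07, 1.95 and 0 CPM, so that the ranges nearly coincided. Their log2 fold changes in edgeR were -0.28 (standard error 1.40) and -0.08 (standard error 1.99), and without mec-8 replicate 1 they were -2.34 and -2.10, each with an adjusted p of 1.0. For mec-2 the 3 overlapping genes in the annotation are noncoding RNAs on the other strand, which share 65 of its exonic bases. They held between 0 and 20 counts in a library.

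Over all genes tested between the genotypes, 0.00% had an adjusted p under 0.05 in edgeR's test and 3.22% had an unadjusted p under 0.05. Of the 8 members that passed the filter, 0 had an adjusted p and 0 an unadjusted p under 0.05. For the 7 of them to which DESeq2 gave an adjusted p, 0 were under 0.05. Among all genes to which that tool gave a p-value, 0.190% had an adjusted p under 0.05. DESeq2 gave mec-2 no p-value, as it does for genes whose count in 1 library is extreme by Cook's distance, which was 34.3 for mec-8 replicate 1 and at most 8.83 elsewhere. The estimated log2 fold changes were above 0 for 5 members and below 0 for 3, with a median of 0.76, beside a median of 0.01 over all genes tested. Without mec-8 replicate 1 only 1 of the 8 members, sto-6, was above 0, and the median was -0.39 beside -0.31 over all genes. The sign turned for 4 of the 8 members, and for 18.5% of the genes that could be fitted both ways. The genotypes overlapped for every member, whereas 6.99% of genes tested had no overlap, 5.50% with the mutant above and 1.49% with it below. Of the 9 members, 5 had their highest library in mec-8 replicate 1, sto-3 among them, against 20.3% of genes tested, a set without sto-3.

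**Figure D2:**
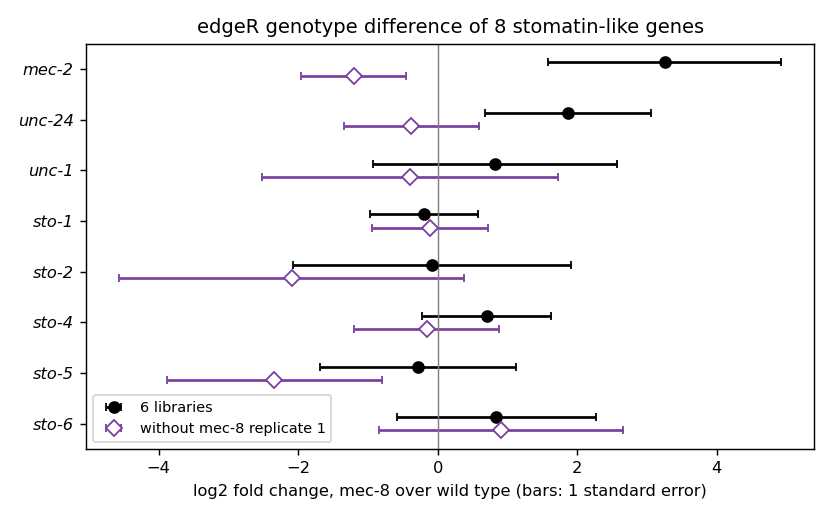
Genotype difference from edgeR (log2 fold change, mec-8 relative to wild type) for the 8 members that passed the filter, with bars of 1 standard error, from all 6 libraries (filled circles) and without mec-8 replicate 1 (open diamonds). The estimates for mec-2 moved from 3.25 to -1.21 and those for unc-24 from 1.87 to -0.38, and those for sto-1 stayed near 0.

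Levels of different genes can be compared only per length, and the order of the family turned on the kind of length chosen. Per kilobase of all annotated exon, the median over the 6 libraries was highest for sto-1, at 14.8 CPM per kilobase, followed by unc-24 at 13.5, sto-4 at 6.55, mec-2 at 6.45, sto-5 at 4.88 and unc-1 at 3.93. The genes sto-6, sto-2 and sto-3 followed at 0.890, 0.518 and 0.116 CPM per kilobase. Only the step from unc-24 down to sto-4 held in 6 of 6 libraries. The step from mec-2 to sto-5 and that from unc-1 to sto-6 each held in 5 of 6, that from sto-1 to unc-24 in 4 of 6, and the others in 3 of 6, so that most neighbours in the order did not differ beyond their spread. The exons of mec-2 are spread over 17 transcripts, none of which holds more than 4053 of the 5764 bases. Divided instead by the median transcript length of 1707 bases, a choice made after the data were seen, mec-2 came first, at 21.8 CPM per kilobase, before sto-1 at 15.5 and unc-24 at 13.5. By coding length 4 members stood above mec-2, against 3 by exon length. Under all 3 lengths mec-2 was above sto-2, sto-3 and sto-6 in 6 of 6 libraries.

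**Figure D3:**
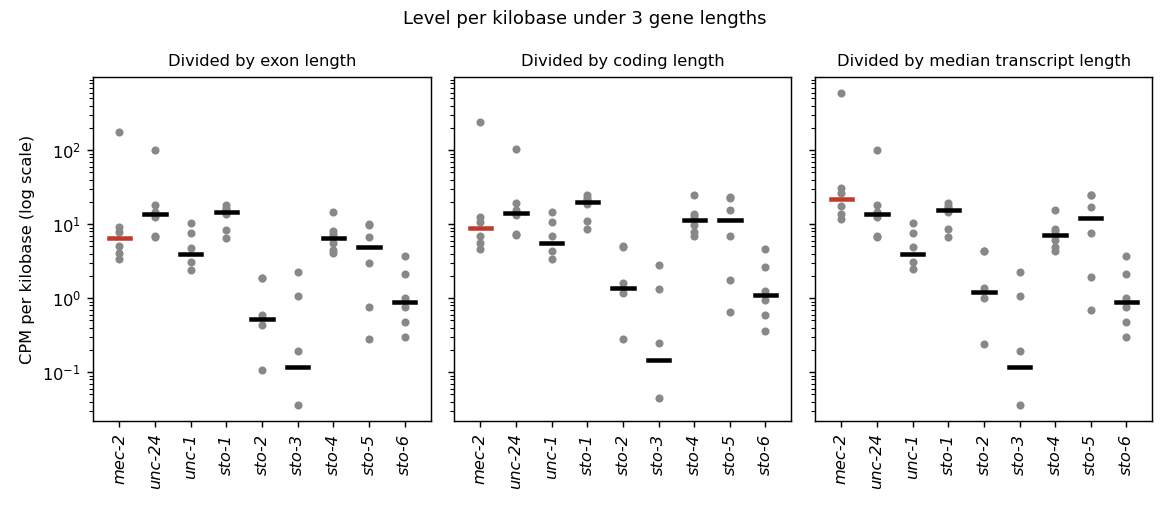
CPM per kilobase on a log axis for each member, with 1 gray point per library and the median of the 6 libraries as a bar (red for mec-2), after division by the length of all exons, by coding length and by the median transcript length. Libraries with 0 counts have no point but enter the median. The bar of mec-2 rose from 6.45 to 21.8 CPM per kilobase between the first and the last choice, and those of unc-24 and sto-1 hardly moved.

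Ratios between genes within a library do not depend on its total. Wild type held 1.73, 3.03 and 3.01 reads of mec-2 for every read of unc-24, and the mutant 7.30, 2.08 and 1.14. The mec-8 libraries thus spanned the wild-type range on both sides. Per kilobase of exon, the log2 ratio of mec-2 to unc-24 was -0.71 ± 0.46 in wild type (SD, n = 3) and -0.66 ± 1.36 in mec-8 mutants (SD, n = 3), a difference of 0.05 (p = 1.0 by a two-sided exact permutation test, whose smallest possible p is 0.1 for 3 against 3). Without mec-8 replicate 1 the difference was -0.70 (p = 0.4 by the same exact test, whose smallest possible p is then 0.2). Of all reads on the 9 genes, mec-2 took 43.1% in wild-type replicate 1 (95% Wilson interval 41.2% to 45.1%, counting error only), 27.4% in wild-type replicate 2 and 40.0% in wild-type replicate 3. In mec-8 replicate 1 its share was 82.2% (interval 81.8% to 82.5%), and in mec-8 replicates 2 and 3 it was 25.5% and 28.2%. Outside mec-8 replicate 1 the other 8 genes together therefore held more reads than mec-2. The reads of all 9 genes came to 1240 CPM in mec-8 replicate 1 and to between 77.6 and 131 CPM in the others, and every share in that library is relative to that larger total.

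Partners of MEC-2 in the touch channel were read in the same way. The pore subunit genes mec-4 and mec-10 were also highest in mec-8 replicate 1, at 232 and 240.4 CPM, 2.99-fold and 2.87-fold above the next library. Wild type held 0.609, 0.673 and 0.628 reads of mec-2 for every read of mec-10, and the mutant 4.24, 0.837 and 0.355. This ratio was therefore narrow in wild type and wide in the mutant, where it fell on both sides. The extracellular protein gene mec-9 stayed closest to mec-2, with 0.584, 0.490 and 0.660 reads of mec-2 per read of mec-9 in wild type and 1.42, 0.629 and 0.661 in the mutant. The tubulin genes mec-7 and mec-12, which build the large microtubules of touch neurons, had no such lead. The level of mec-12 in that library was 1.16-fold above the next, and that of mec-7 was 1685 CPM in mec-8 replicate 1 against 3295 CPM in wild-type replicate 1. Of the 8 genes of the channel and its surroundings, mec-4, mec-10, mec-6, mec-1, mec-5, mec-9, mec-7 and mec-12, 0 passed the test in either direction. Their median log2 fold change was 0.35, and -1.30 without mec-8 replicate 1. Over all genes tested 0.00% passed, and the medians were 0.01 and -0.31.

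Genes known to act with UNC-1 or to bear on the same behavior were read next. The sodium leak channel partners unc-79 and unc-80 were highest in mec-8 replicate 1, at 84.8 and 105.7 CPM, and lowest in mec-8 replicate 3, at 3.13 and 7.75 CPM. The innexin gene unc-9 had 16.7 CPM in mec-8 replicate 1, 0 counts in mec-8 replicate 3 and between 3.41 and 6.52 CPM in the other libraries. Its highest and lowest libraries were thus those of unc-1, but mec-8 replicate 2 was high in unc-1 only. Of the 6 genes unc-7, unc-9, unc-8, del-1, unc-79 and unc-80, which encode innexins, DEG/ENaC subunits and partners of the sodium leak channel, 4 passed the filter. Of these 0 passed the test, against 0.00% of all genes tested. The wider relatives with the same membrane domain, stl-1, the prohibitin genes phb-1 and phb-2, and erl-1, did not share the high library of mec-2. The level of phb-1, whose protein is mitochondrial, was 151, 134 and 73.7 CPM in wild type and 44.6, 169 and 53.0 CPM in the mutant, so that mec-8 replicate 1 was its lowest library. None of the 4 was highest in mec-8 replicate 1, against 20.3% of genes tested, and 0 of the 4 passed the test, against 0.00%.

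**Figure D4:**
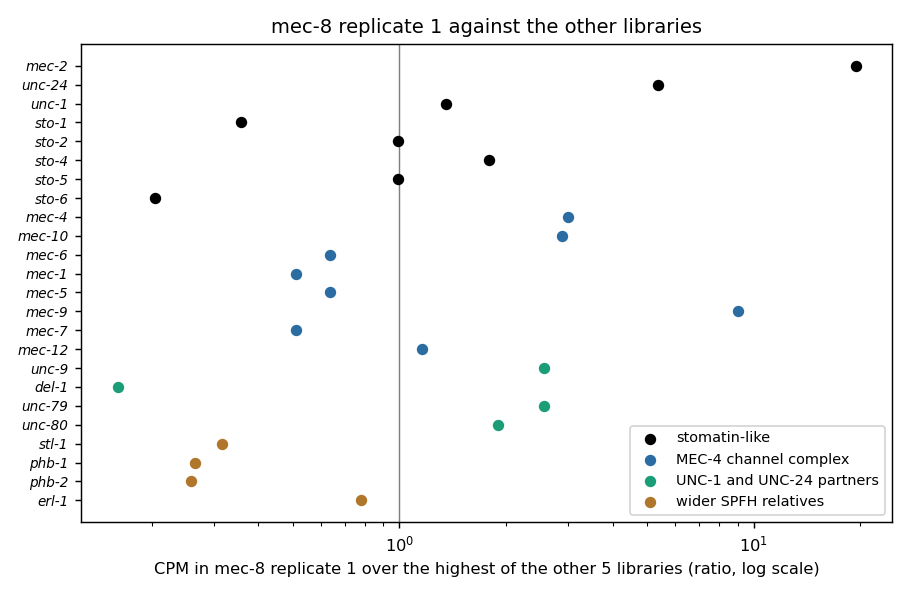
Ratio of the CPM in mec-8 replicate 1 to the highest of the other 5 libraries, on a log axis, for members and partner genes that passed the filter, colored by list. The line marks a ratio of 1. The genes mec-2 (19.4), mec-9 (9.02) and unc-24 (5.38) lay farthest to the right, and the prohibitin genes lay to the left of the line.

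Genes whose log2 CPM followed mec-2 most closely over the 6 libraries were found among the 14613 other genes tested. The 5 highest Pearson correlations were those of mec-9 (r = 0.992), acdh-1 of acyl-CoA metabolism (r = 0.990), the microtubule-binding elp-1 (r = 0.978), K09F6.13 (r = 0.978) and the presynaptic active zone gene cla-1 (r = 0.976). They describe 6 libraries of which mec-8 replicate 1 stands far from the rest, and they share its depth and make-up. Over the other 5 libraries mec-9 kept the highest of these 5 values, at 0.958, and elp-1 and K09F6.13 dropped to 0.652 and 0.581. Among the members, unc-24 ranked 16 of the 14613 genes by likeness to mec-2 (r = 0.941) and sto-4 ranked 146 (r = 0.836). Without mec-8 replicate 1 these values dropped to 0.558 and 0.341. The value for sto-1 was -0.782, and -0.366 without mec-8 replicate 1. All 5 genes had mec-8 replicate 1 above and mec-8 replicates 2 and 3 below every wild-type library, an arrangement that 0.869% of genes tested had and that the choice by likeness to mec-2 favors.

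**Figure D5:**
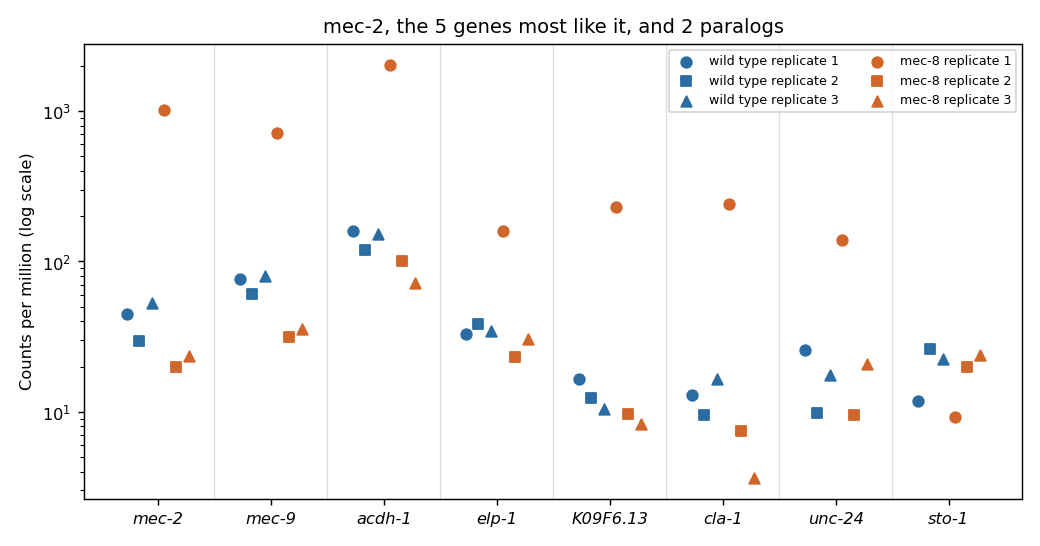
CPM on a log axis of mec-2, the 5 genes most like it and the paralogs unc-24 and sto-1, with wild-type libraries in blue, mec-8 libraries in orange and the replicate given by the marker. The high value of mec-8 replicate 1 is shared by all but sto-1, which was lowest there at 9.25 CPM.

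Markers of several cells also moved with mec-8 replicate 1. The 10 pan-neuronal markers summed to 935 CPM in it and to between 144 and 669 CPM in the others. Of the 10, 7 were highest in it, against 20.3% of genes tested. Among them was unc-104, at 299 CPM against at most 34.2 CPM elsewhere. The 10 touch neuron markers summed to 11523 CPM in it, below the 14706 CPM of wild-type replicate 1. Singly, 5 of the 10 were highest in it, mec-4, mec-10, mec-3, mec-12 and mec-14, and the rest in wild-type replicate 1. The 3 yolk genes summed to 44138 CPM in it against 3561 CPM or less elsewhere, and 7 genes of germline and sperm to 10287 CPM against 4053 CPM or less. Within that last list the 5 sperm genes msp-3, msp-10, msp-19, gsp-3 and gsp-4 were highest in mec-8 replicate 1, whereas the germline genes pgl-1 and glh-1 were lowest in it, at 89.7 and 465 CPM. No marker of these lists had 0 counts in that library. The 5 intestinal markers summed to 36.6 to 381 CPM in wild type and to 608 to 3667 CPM in the mutant, without overlap. Of these 5, 4 had no overlap between genotypes singly, against 6.99% of genes tested, and 0 had an adjusted p under 0.05 in edgeR, against 0.00%. The part of these markers in the level of mec-2, or in its genotype difference, was not tested.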

How the data were processed

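PolyA RNA of sorted touch neurons was sequenced in 6 libraries. The counts deposited by the authors are raw, 1 table per library, made with HTSeq after STAR alignment to WBcel235. The strand setting and the annotation release of the counting are not given in the sources used here. Lines of unassigned reads at the foot of each table stayed out of all totals. Ambiguous reads, which touch several genes, were most frequent for wild-type replicate 1, at 11.1% of the unique reads. Every other library had a share from 2.62% to 3.04%. Wild-type replicate 1 also held the most alignments that were not unique, 70024247 against at most 11988379 elsewhere. Coordinates, lengths and overlaps came from release 115 of the Ensembl annotation of WBcel235, which holds 46364 of the 46726 identifiers.

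CPM were taken from the totals of reads on genes. The genotype test was the quasi-likelihood test of edgeR 4.0.16 (R 4.3.3) after filterByExpr and TMM scaling, with p-values adjusted by Benjamini-Hochberg over the 14614 genes kept and a threshold of 0.05. A standard error is the size of the log2 fold change divided by the root of its F statistic. Ratios add 0.5 to each count and were compared by exact permutation test (scipy 1.17.1, python 3.11.15). Alternatives were DESeq2 1.42.0, limma 3.58.1 voom with quality weights, other normalizations and filters, a replicate block and each library left out. Only the main edgeR fit was tried on simulated counts. Their dispersion was far below that of these libraries, so the trial does not show what the fit could detect here. Members and lists were chosen with earlier results of these data known. Named genes are the members, the genes of the partner and marker lists, genes overlapping a member, and the 5 genes with the highest Pearson correlation to mec-2. Splice junctions were not analysed here.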

Additional observations from a re-analysis of the deposited data

How the results depend on the processing

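Of the 8 members that passed the filter, none had an adjusted p under 0.05 in any fit that gave it one. DESeq2 gave mec-2 none, and sto-3 was not followed across the fits. Over all genes DESeq2 called 44, and each of the other fits called 0, with each library left out included. For mec-2 the smallest adjusted p over the alternatives was 0.724, and its unadjusted p was under 0.05 without a filter (0.0225), with at least 10 counts in every library (0.0470) and without mec-8 replicate 2 (0.0419). Its log2 fold change lay between 0.15 (limma voom) and 3.51 over 7 alternatives, all in 1 direction, and between -1.21 and 3.89 when single libraries were left out, with mec-8 replicate 1 the only one that turned it.

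Leaving out mec-8 replicate 1 also turned unc-24, unc-1 and sto-4. The ranges with single libraries left out were -0.38 to 2.44 for unc-24, -0.40 to 1.42 for unc-1, -2.10 to 1.94 for sto-2, -0.16 to 1.10 for sto-4, -2.34 to 0.26 for sto-5 and -0.69 to 1.46 for sto-6. The direction of sto-2 turned without wild-type replicate 3, mec-8 replicate 2 or mec-8 replicate 3, that of sto-5 without wild-type replicate 2 or 3 or mec-8 replicate 2 or 3, and that of sto-6 without mec-8 replicate 3. The gene sto-1 kept its sign under all of them, with a range of -0.71 to -0.0011 when single libraries were left out. Without wild-type replicate 3 it was thus almost at 0. Limma voom gave -0.65 for unc-1 against 0.82, -1.63 for sto-2 against -0.08, -1.50 for sto-5 against -0.28, 0.45 for unc-24 against 1.87, -0.47 for sto-1 against -0.20, 0.26 for sto-4 against 0.70 and 0.11 for sto-6 against 0.84. For sto-2 library size alone gave 0.026 and DESeq2 0.021. The cause was not tested. Upper-quartile normalization put the median of all genes at -0.11 in place of 0.01.

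The log2 ratio of mec-2 to unc-24 differed between genotypes by -0.70 to 0.64 when single libraries were left out, turning without wild-type replicate 1 or mec-8 replicate 1. The number of members above mec-2 per kilobase was 3 by exon length, 4 by coding length and 0 by median transcript length. The length of mec-2 was 5764, 4238 and 1707 bases under these choices, and that of sto-5, which passed it by coding length, was 3022, 1299 and 1199 bases.

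Whether the replicate numbers pair the libraries cannot be decided from 3 libraries per genotype. The correlations of deviations from the genotype means were 0.06, 0.47 and -0.17 for replicates 1, 2 and 3. Between libraries of unlike number they ran from -0.34 to 0.27. Under a replicate block 0 genes were called, 240 against 470 had an unadjusted p under 0.05, mec-2 was at 0.43, unc-24 at 0.84, sto-5 at -1.42, unc-1 at -0.045, sto-2 at 0.076 and the log2 ratio of mec-2 to unc-24 at 0.05. Low counts limit sto-3 and sto-6, and a library with 0 counts of a gene may hold up to 0.0907 to 0.196 CPM of it.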
